A study of Mus musculus with 12 samples.

Results

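The genes described here encode the Wnt ligands, the enzymes that add and remove their lipid, their receptors and antagonists, and the proteins that carry their signal inside the cell. They were chosen by symbol, not by measured value: all rows named Wnt, Fzd, Sfrp, Dkk or Rspo with a number, plus a fixed set of further pathway genes, which gave 62 of the 46983 symbols in the count table. Of these, 61 are protein-coding genes and Rspo4os is an antisense RNA. The RNA came from adult mouse hearts, from nuclei bound to beads by PCM1, a marker by which heart muscle nuclei are selected. Control mice carried Myh6-MCM, a tamoxifen-inducible Cre recombinase driven by the Myh6 promoter, which is active in heart muscle cells. YAP5SA mice carried Myh6-MCM and a Yap5SA transgene (Yap5SA+/tg), which encodes a YAP protein, the co-activator at the end of the Hippo pathway, that escapes inhibition by the Hippo kinases. Both groups received tamoxifen, so Cre and tamoxifen are shared by controls. There were 2 libraries in each group, and the labels give neither the time after tamoxifen nor whether replicates were separate animals.

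Wnt proteins are lipid-modified secreted ligands that bind Frizzled receptors together with the co-receptors LRP5 or LRP6. In the canonical branch this stops the destruction complex of Axin, APC and its kinases from degrading beta-catenin, which then enters the nucleus and acts with TCF/LEF factors on target genes, among them the feedback inhibitors Axin2, Notum, Nkd1, Rnf43 and Znrf3. Secreted frizzled-related proteins and WIF1 bind the ligands, Dickkopf proteins block LRP, and R-spondins, through LGR receptors, keep RNF43 and ZNRF3 from removing Frizzleds. In the heart the pathway is known for its part in development and in the response to injury.

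Total counts ran from 7850661 to 15012122 per library. Where a library had 0 counts, up to 3 could have been missed, or 0.202 to 0.397 CPM (counts scaled by library total with TMM). Spread was larger in the control pair (biological coefficient of variation 34.1%) than in the YAP5SA pair (8.44%). All 10 cardiomyocyte markers were detected, with summed levels of 32716 and 65179 CPM in control replicates 1 and 2 and 23036 and 24258 CPM in the YAP5SA replicates. Most of each sum was Ttn alone, at 19901 and 48149 CPM in control against 15501 and 16678 CPM in YAP5SA. All 10 markers had a negative log2 fold change, 5 of them with an unadjusted p under 0.05, where 10.9% of all tested genes were lower. Markers of other heart cells were present too, including all 12 endothelial, all 12 fibroblast and all 13 macrophage and monocyte genes. Yap1 stood at 138 and 166 CPM in control against 168 and 161 CPM in YAP5SA. The sources used here do not say whether transgene reads were counted under it. In RNA of many nuclei, fewer nuclei of a type and less RNA per nucleus cannot be told apart.

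Most Wnt pathway genes showed no difference that passed the test, and the gene that did was the ligand Wnt7a, which rose in YAP5SA. Of the 62 genes, 39 had enough counts to be tested, and of these 1 rose and 0 fell at an adjusted p under 0.05 (edgeR quasi-likelihood test over all 17715 tested genes). Over all tested genes the share that rose was 3.12% and the share that fell was 0.999%. At an unadjusted p under 0.05, 7 of the 39 were higher and 6 lower, against 12.7% and 10.9% of all tested genes. DESeq2 called 4 higher (Fzd2, Fzd5, Wnt7a and Wnt9a) and 2 lower (Axin2 and Sfrp1), against 5.49% and 2.73% of the genes it tested. Both YAP5SA libraries lay above both controls for 9 of the 39 and below them for 10, against 28.1% and 28.3% of all tested genes. The median log2 fold change (YAP5SA minus control) was -0.06 over these 39 genes and also -0.06 over all tested genes, with a range from -2.49 for Lef1 to 4.59 for Wnt7a. Wnt7a and Dkk2 passed the count filter through their YAP5SA counts alone, and Lef1 and Notum through their control counts alone. For these genes the test is not independent of the filter.

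**Figure D1:**
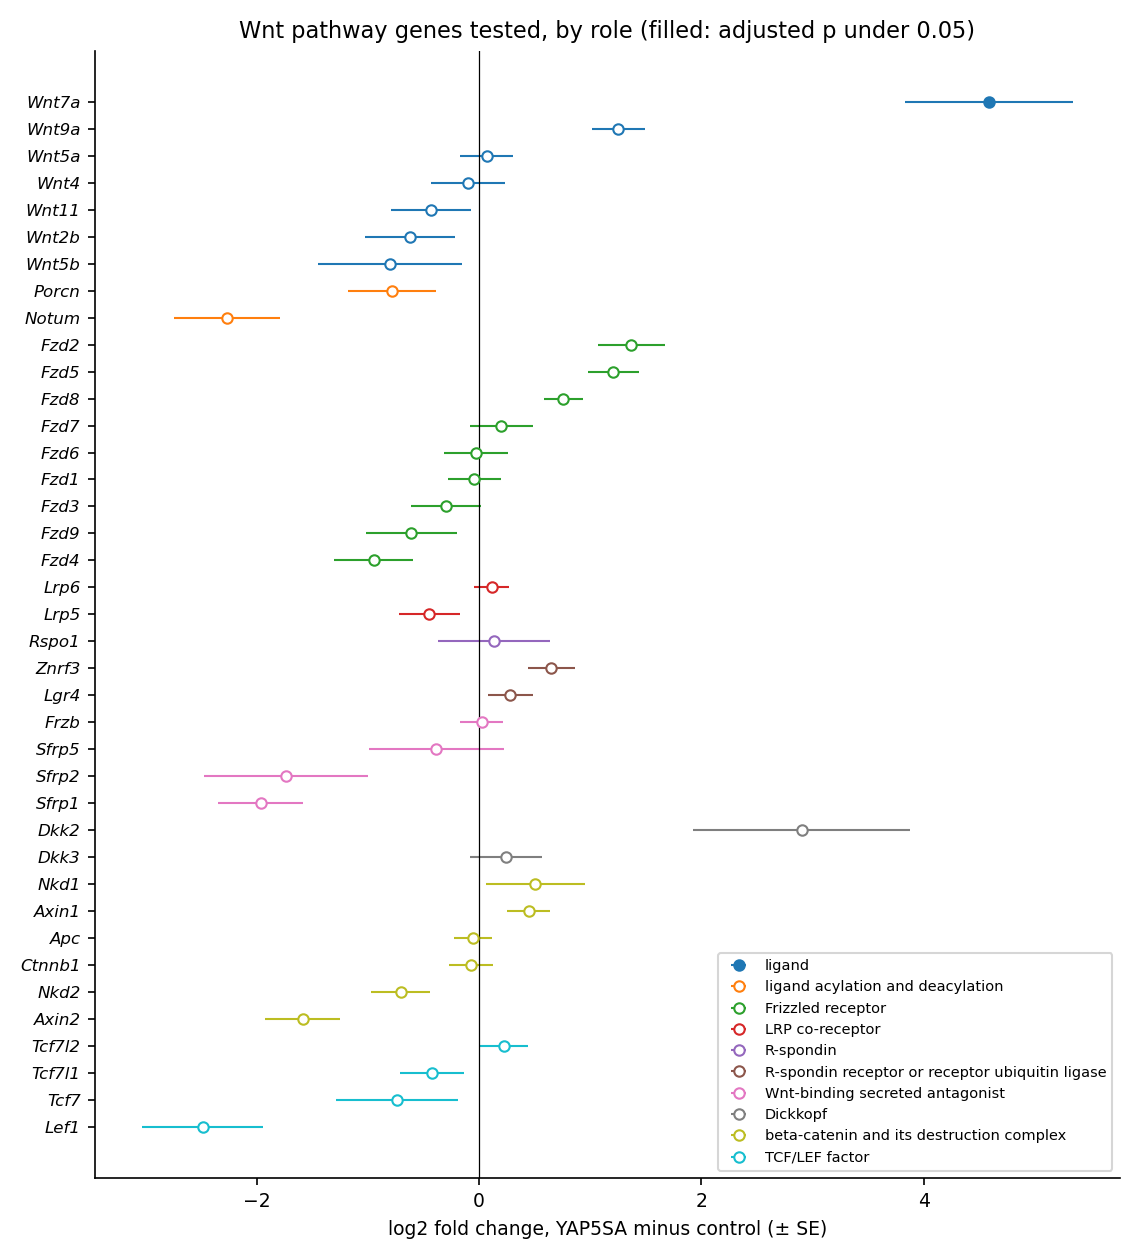
The log2 fold change of each of the 39 tested genes (x axis, YAP5SA minus control, bars are ± 1 SE of the edgeR fit from 2 libraries per group), coloured by role. Wnt7a, the filled point, is the gene past an adjusted p of 0.05, while the Frizzled receptors spread from -0.95 for Fzd4 to 1.37 for Fzd2.

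Among the 19 ligand genes, 18 had a count in some library and 7 were tested, of which Wnt7a rose and 0 fell. Wnt7a, a ligand known for roles in limb patterning and in skeletal muscle (chromosome 6, 91363981 to 91411363, mm10), had 4 and 0 counts in control replicates 1 and 2 and 87 and 62 counts in the YAP5SA replicates. These are 0.362 and 0 CPM against 5.86 and 4.71 CPM, so the gene went from near the limit of detection in control to a low level in YAP5SA, with no overlap between the groups. The log2 fold change was 4.59 (SE 0.756, adjusted p = 0.0428). Scaled for library size, the summed counts were 24.7 times higher in YAP5SA, with an exact 95% counting interval from 9.47 to 92.0. Wnt7a was past the threshold in 10 of 12 fits, and its adjusted p ran from 5.01e-12 to 0.231 over them. The call was lost without YAP5SA replicate 1 (adjusted p = 0.158) and without YAP5SA replicate 2 (adjusted p = 0.231), while without control replicate 1, which held all its control counts, the fitted log2 fold change was 8.98, a value that depends on the prior count since the control left is at 0. Its close paralog Wnt7b, too low to be tested, had 12 and 0 counts in control and 9 and 7 in YAP5SA.

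Wnt9a (chromosome 11, 59306928 to 59333552), a ligand known for its part in joint formation, had the highest ligand level per length averaged over the libraries, although Wnt2b was higher in control replicate 2. It measured 11.7 and 9.25 CPM in control against 28.4 and 21.7 CPM in YAP5SA, so both YAP5SA libraries lay above both controls. The log2 fold change was 1.25 (SE 0.242), with an adjusted p of 0.0552, short of the threshold. Wnt9a was called by DESeq2 (adjusted p = 0.00517) and with library totals alone (adjusted p = 0.0487), over a range from 2.82e-09 to 0.401. Per kb of exon, Wnt9a made up 27.9% and 19.7% of all ligand signal in the control replicates and 45.9% and 42.0% in the YAP5SA replicates. With 2 libraries against 2, an exact two-sided permutation test of such a share cannot go below 0.333, so no test is given. The summed level of the 19 ligands was 12.6 and 14.1 CPM per kb in control and 18.6 and 15.5 in YAP5SA. The other 5 tested ligands did not pass the test, with adjusted p from 0.401 for Wnt2b to 0.889 for Wnt5a. Wnt5a and Wnt11, ligands known for beta-catenin-independent signaling, measured 9.19 ± 1.22 and 5.02 ± 1.49 CPM in control against 9.67 ± 0.0417 and 3.74 ± 0.619 CPM in YAP5SA (SD, n = 2). Wnt4 measured 5.77 ± 1.75 against 5.34 ± 0.458 CPM. Control replicate 2 held most of the Wnt2b and Wnt5b signal of its group, with 18.2 CPM against 8.97 CPM in replicate 1 for Wnt2b and 6.48 against 1.72 CPM for Wnt5b. The YAP5SA values of both lay between the controls or, for Wnt2b in replicate 2 (7.21 CPM), just below them.

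Several Wnt genes lie in pairs along the chromosome, and their counts are given by pair. Wnt3a lies 16.2 kb from Wnt9a and had 0 counts in every library. Wnt9b, the paralog of Wnt9a, lies 24.3 kb from Wnt3, and had 3 and 0 counts in control and 24 and 10 in YAP5SA, a ratio of summed counts of 7.53 (counting interval 2.37 to 38.3). It fell below the count filter and was chosen after its values were seen. Wnt3 had 1 to 4 counts in each library. Wnt6 and Wnt10a are 6.19 kb apart and had 6 and 1, and 2 and 1, counts in control, against 10 and 11, and 12 and 4, in YAP5SA. Wnt1 and Wnt10b, 11.7 kb apart on chromosome 15, had 17 and 19 counts in control replicate 1 and 1 count each in control replicate 2, with 2 to 4 counts in the YAP5SA libraries.

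The promoter windows of Wnt7a and Wnt9a, the tested ligand genes with the largest log2 fold changes, and of Axin2 and Lef1, feedback genes with low levels there, are shown so that the letters behind the motif counts can be read. Each is 300 bases from RefSeq (GRCm38.p6), from 250 bases before to 50 after a start. In the first 3, capitals mark the GC box (GGGCGG or its complement CCGCCC), and in the Lef1 window capitals mark TCAAAG, the complement of the TCF/LEF core CTTTGA. They lie at chr6:91411304-91411603 (minus strand, Wnt7a), chr11:59306680-59306979 (plus, Wnt9a), chr11:108920099-108920398 (plus, Axin2) and chr3:131156044-131156343 (plus, the fourth of 4 Lef1 windows). Of the Lef1 windows only this one holds the TCF/LEF core, and it is shown for that reason. It lies inside the gene, whose start is at 131110471, and a GC box stands in another Lef1 window.
Wnt7a: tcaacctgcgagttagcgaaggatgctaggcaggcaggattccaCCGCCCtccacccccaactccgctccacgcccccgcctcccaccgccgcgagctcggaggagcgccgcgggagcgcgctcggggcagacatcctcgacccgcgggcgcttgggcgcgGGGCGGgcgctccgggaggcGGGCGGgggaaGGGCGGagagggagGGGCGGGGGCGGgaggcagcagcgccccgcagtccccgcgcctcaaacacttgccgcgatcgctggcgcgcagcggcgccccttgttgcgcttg
Wnt9a: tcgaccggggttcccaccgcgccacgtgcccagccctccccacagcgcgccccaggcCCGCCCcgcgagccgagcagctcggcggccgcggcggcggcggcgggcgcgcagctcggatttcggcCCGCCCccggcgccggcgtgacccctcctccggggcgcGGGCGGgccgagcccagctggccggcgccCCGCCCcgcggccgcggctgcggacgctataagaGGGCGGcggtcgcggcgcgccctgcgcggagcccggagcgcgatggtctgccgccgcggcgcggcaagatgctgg
Axin2: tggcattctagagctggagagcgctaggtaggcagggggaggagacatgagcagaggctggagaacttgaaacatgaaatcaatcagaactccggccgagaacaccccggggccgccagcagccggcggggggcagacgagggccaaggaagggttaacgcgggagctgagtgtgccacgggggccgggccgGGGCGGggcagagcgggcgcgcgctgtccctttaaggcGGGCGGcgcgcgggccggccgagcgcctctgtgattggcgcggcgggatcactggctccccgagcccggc
Lef1: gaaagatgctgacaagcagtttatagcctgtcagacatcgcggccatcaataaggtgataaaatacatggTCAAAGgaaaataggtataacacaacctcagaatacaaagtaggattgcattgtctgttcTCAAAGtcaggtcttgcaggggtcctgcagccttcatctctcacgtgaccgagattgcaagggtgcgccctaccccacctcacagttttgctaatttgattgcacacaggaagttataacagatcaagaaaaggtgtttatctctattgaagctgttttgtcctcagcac
The windows of Wnt7a, Wnt9a and Axin2 hold 6, 5 and 2 GC boxes, and that of Lef1 holds TCAAAG 2 times. RefSeq windows were matched for 39 of the 62 genes, 49 windows in all. A GC box on either strand stood in 34 of the 49 windows (69.4%) and in 35.7% of all 32851 windows. The TEAD core GGAATG, searched on both strands, stood in 2 of the 49 (4.08%), in Lgr4 and Wnt5b, against 14.7% of all windows, and CTTTGA in 6 (12.2%) against 16.0%. Matches were counted for each motif separately, overlapping ones included. These are descriptions of short windows and say nothing about sites farther away.

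The enzymes that act on the ligands were low in every library. Porcn, which encodes the acyltransferase that attaches the lipid to Wnt proteins, measured 4.44 and 2.78 CPM in control against 1.95 and 2.28 CPM in YAP5SA (log2 fold change -0.78, adjusted p = 0.296). Notum (chromosome 11, 120653788 to 120661175) encodes the secreted esterase that removes this lipid and is itself a target of beta-catenin. It had 33 and 14 counts in control and 7 and 7 in YAP5SA, or 2.99 and 1.85 against 0.472 and 0.532 CPM. Both YAP5SA libraries lay below both controls, with a log2 fold change of -2.27 (SE 0.480) that missed the threshold (adjusted p = 0.0655). Exons of Notum overlap Notumos and Myadml2os on the other strand, which had 16 and 3, and 9 and 6, counts in control against 1 and 1, and 0 and 1, in YAP5SA. Since the strand setting of the counting is not given, these cannot be told apart fully from reads of Notum.

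The Frizzled receptors differed among themselves, and the order of their levels was not the same in the groups. Of 10 genes, 9 were tested and 0 passed with edgeR, while DESeq2 called Fzd2 and Fzd5. At an unadjusted p under 0.05, 3 were higher and 1 lower, against 12.7% and 10.9% of all tested genes. Fzd2 (chromosome 11, 102604396 to 102608058) measured 17.9 and 32.0 CPM in control against 60.04 and 68.4 CPM in YAP5SA (log2 fold change 1.37, SE 0.302, adjusted p = 0.0709). Fzd5 (chromosome 1, 64730558 to 64737751) measured 26.4 and 19.4 CPM against 47.3 and 59.2 CPM (log2 fold change 1.21, SE 0.231, adjusted p = 0.0537). Gm38058, which overlaps Fzd5 on the other strand, had 2 to 12 counts in each library. For both receptors the lower YAP5SA library was well above the higher control. Fzd8 was at nearly the same level in the control libraries, 22.3 and 22.5 CPM, and at 35.0 and 40.8 CPM in YAP5SA (log2 fold change 0.76, adjusted p = 0.0778). Fzd4 (chromosome 7, 89404355 to 89413134), a receptor known for its role in blood vessels, measured 84.1 and 40.6 CPM in control against 33.8 and 31.1 CPM in YAP5SA (log2 fold change -0.95, adjusted p = 0.190). Its control libraries differ about as much as the groups do, and without control replicate 1 the log2 fold change was -0.32. Fzd1, Fzd3, Fzd6, Fzd7 and Fzd9 had log2 fold changes between -0.61 and 0.20, and Fzd10 was too low to be tested, with 18 and 1 counts in control and 6 and 1 in YAP5SA.

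Per kb of exon, Fzd2 was the highest Frizzled in both YAP5SA libraries (16.4 and 18.7 CPM per kb) and in control replicate 2 (8.73), whereas Fzd4 was highest in control replicate 1 (12.5). Fzd2 made up 11% and 25.3% of the summed Frizzled level in the control replicates and 33.1% and 33.8% in the YAP5SA replicates. Fzd4 made up 28.1% and 17.5% in control and 10.1% and 8.37% in YAP5SA. Fzd1 was second in all 4 libraries. Its level per kb was 9.64 ± 2.72 in control and 9.39 ± 0.661 in YAP5SA (SD, n = 2). The order of Fzd1, Fzd4 and Fzd2 in control cannot be set, since their means of 9.64, 9.28 and 6.81 CPM per kb lie within the spread of the replicates. The summed Frizzled level was 44.5 and 34.5 CPM per kb in control and 49.5 and 55.2 in YAP5SA. In GENCODE M21, 6 of the 10 Frizzled genes, among them Fzd1, Fzd2 and Fzd8, have a single exon, so counting of intronic reads cannot add to their levels. For genes with introns, whether intronic reads were counted is not given, which limits the comparison per length.

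**Figure D2:**
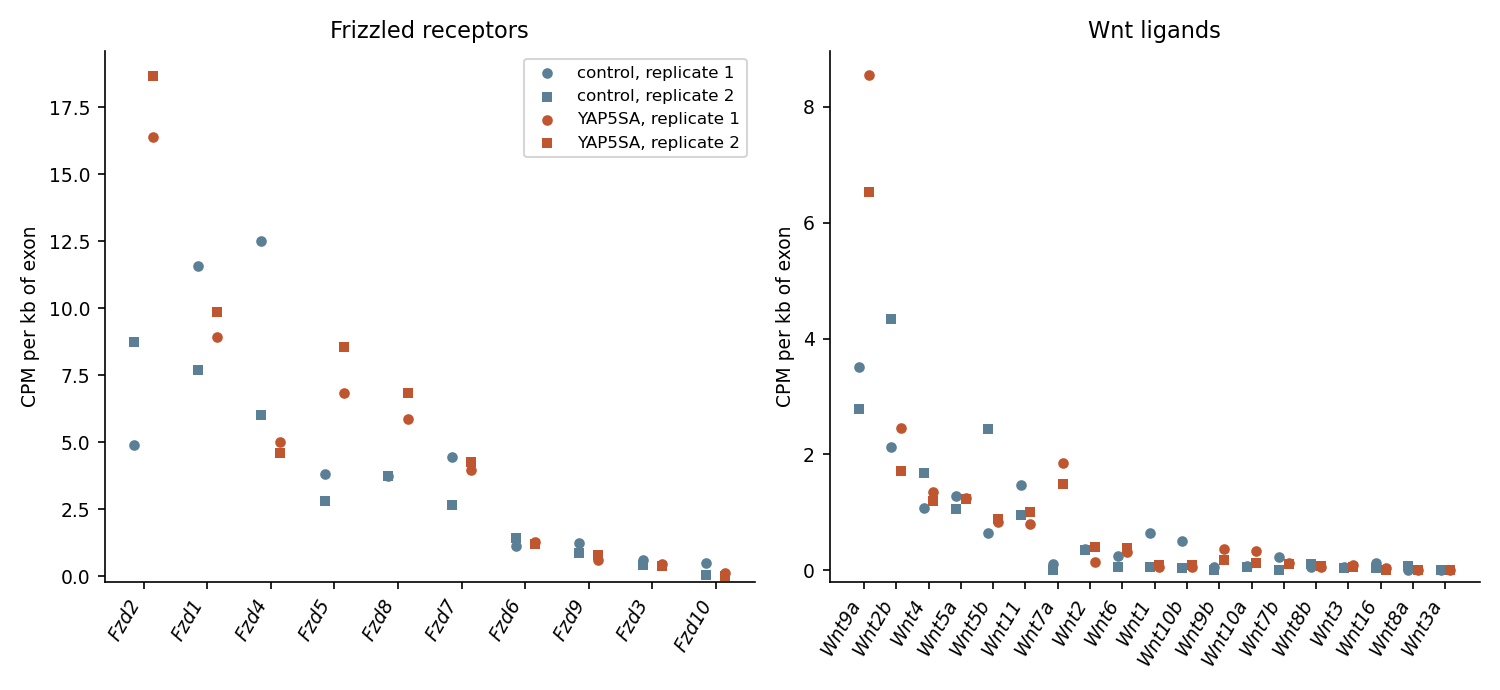
Levels of the 10 Frizzled genes (left) and the 19 Wnt ligand genes (right) in CPM per kb of exon (y axes, linear), each point 1 library, circles replicate 1 and squares replicate 2, control in blue and YAP5SA in orange. Fzd2 stands at 16.4 and 18.7 in YAP5SA against 4.90 and 8.73 in control, and Wnt9a at 8.54 and 6.52 against 3.51 and 2.78.

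Most markers of macrophages and monocytes were also higher in YAP5SA. Cd163 went the other way (log2 fold change -1.42), with 81.2 and 13.1 CPM in control against 16.0 and 19.4 CPM in YAP5SA. The summed level of all 13 macrophage and monocyte markers was 874 and 603 CPM in control against 1457 and 1749 CPM in YAP5SA. Of these markers 5 rose and 0 fell, against 3.12% and 0.999% of all tested genes. Epicardial markers, 9 genes, summed to 189 and 137 CPM in control against 238 and 271 CPM in YAP5SA. At an unadjusted p under 0.05, 4 were higher and 4 lower, against 12.7% and 10.9% of all tested genes. Among 12 fibroblast markers 2 rose and 0 fell, with sums of 9971 and 7956 CPM in control against 8989 and 10931 CPM in YAP5SA. No marker in these lists was at 0 in all libraries. The part of these cells in the levels of Wnt7a, Wnt9a, Fzd2 and Fzd5 was not tested.

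No co-receptor, R-spondin or R-spondin receptor gene passed the test with edgeR or DESeq2, and Lrp6 and Lgr4 were the abundant genes among them. Lrp6, the co-receptor with the higher level per length, measured 157 and 155 CPM in control against 169 and 170 CPM in YAP5SA (log2 fold change 0.12, SE 0.158, adjusted p = 0.696). Lrp5 measured 101 and 59.7 CPM against 57.0 and 61.1 CPM, so that only control replicate 1 stood apart. Of the R-spondin rows only Rspo1, whose ligand enhances Wnt signaling, was tested, at 1.91 ± 1.04 CPM in control against 2.04 ± 0.223 CPM in YAP5SA (SD, n = 2). Rspo2, Rspo3, Rspo4 and Rspo4os had 0 to 4 counts in each library. The R-spondin receptor Lgr4 measured 136 and 117 CPM in control against 173 and 134 CPM in YAP5SA (adjusted p = 0.442). Its relative Lgr5, a target gene and stem cell marker in other tissues, had 4 and 1 counts in control and 4 and 0 in YAP5SA. Of the ubiquitin ligases that remove Frizzleds, Rnf43 had 6 and 0 counts against 4 and 2. Znrf3 (chromosome 11, 5276324 to 5444847) measured 26.4 and 36.5 CPM in control against 49.3 and 49.2 CPM in YAP5SA, above both controls (log2 fold change 0.65, SE 0.211, adjusted p = 0.148).

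Of the secreted antagonists that bind Wnt, 4 of 6 were tested and 0 passed with edgeR. Sfrp1 (chromosome 8, 23411502 to 23449632) measured 66.1 and 31.6 CPM in control against 11.3 and 13.8 CPM in YAP5SA, with no overlap. The log2 fold change was -1.96 (SE 0.381, adjusted p = 0.0558), and DESeq2 called it (adjusted p = 0.000216, over a range from 4.46e-48 to 0.307). Sfrp2 measured 7.52 and 1.59 CPM in control against 1.42 and 1.37 CPM in YAP5SA, so its difference rests on control replicate 1, and without that library its log2 fold change was -0.18. Frzb, which encodes sFRP3, was the most abundant of these antagonists per length over the libraries and measured 35.6 ± 6.41 CPM in control against 36.2 ± 0.331 CPM in YAP5SA (SD, n = 2). Per kb of exon Sfrp1 and Frzb were at 11.2 ± 5.58 and 10.99 ± 1.98 in control, where they cannot be ordered, and at 2.88 ± 0.404 and 11.2 ± 0.102 in YAP5SA (SD, n = 2). Sfrp5 had 6 to 29 counts in each library, Wif1 6 to 15 and Sfrp4 0 to 7.

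The Dickkopf genes, whose products block LRP5 and LRP6, were low. Dkk2 (chromosome 3, 132085292 to 132180304) had 0 and 2 counts in control and 13 and 12 in YAP5SA, a ratio of summed counts of 8.30 (counting interval 2.07 to 72.3) with an adjusted p of 0.158 in the edgeR fit. Dkk3, a relative that is not known as a strong LRP blocker, measured 4.08 ± 0.395 CPM in control against 4.82 ± 0.906 CPM in YAP5SA (SD, n = 2). Dkk1 and Dkk4 had 0 to 8 counts in each library.

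Inside the cell, Ctnnb1 and Apc had close levels in both groups, and Axin2 had its lowest values in YAP5SA. Ctnnb1, which encodes beta-catenin and was the most abundant gene of all 62 per length, measured 381 and 324 CPM in control against 324 and 347 CPM in YAP5SA (log2 fold change -0.07, SE 0.194, adjusted p = 0.858). Its exons overlap Ulk4 on the other strand, which had 57 and 65 counts in control and 132 and 97 in YAP5SA. Apc, the scaffold of the destruction complex, measured 255 ± 6.91 against 245 ± 9.71 CPM, and Axin1 34.4 ± 5.28 against 46.9 ± 4.17 CPM (SD, n = 2). Axin2 (chromosome 11, 108920349 to 108950783), the scaffold gene that beta-catenin itself induces and a common readout of canonical signaling, measured 17.4 and 10.3 CPM in control. In YAP5SA it measured 4.99 and 4.25 CPM, below both controls, with log2 fold change -1.59 (SE 0.338, adjusted p = 0.0660). DESeq2 called Axin2 (adjusted p = 0.0105, over a range from 1.92e-13 to 0.530). Nkd1 and Nkd2 encode Dishevelled-binding inhibitors. Nkd1 measured 1.68 ± 0.696 against 2.45 ± 0.408 CPM and Nkd2 12.7 ± 1.14 against 7.75 ± 1.72 CPM (SD, n = 2), with adjusted p of 0.534 and 0.191.

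Of the 4 TCF/LEF factors, Lef1 (chromosome 3, 131110471 to 131224356) stood apart. It had 22 and 13 counts in control and 3 and 6 in YAP5SA, or 1.99 and 1.72 against 0.202 and 0.456 CPM, with no overlap. The log2 fold change of -2.49 (SE 0.547) missed the threshold (adjusted p = 0.0705), and the ratio of summed counts was 0.171 (counting interval 0.0722 to 0.363). Tcf7l2, the factor with the highest level of the 4 per length, measured 32.9 ± 6.78 CPM in control against 38.3 ± 4.75 CPM in YAP5SA, and Tcf7l1 14.3 ± 4.73 against 10.7 ± 0.299 CPM (SD, n = 2). Tcf7 measured 7.34 and 2.64 CPM in control against 3.64 and 2.43 CPM in YAP5SA, and its log2 fold change of -0.74 turned to 0.22 without control replicate 1.

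Read as a group, the 8 feedback targets Axin2, Lef1, Tcf7, Nkd1, Notum, Rnf43, Znrf3 and Lgr5 lay in both directions. Axin2, Lef1 and Notum lay below both controls in both YAP5SA libraries, Znrf3 lay above, Tcf7 and Nkd1 overlapped, and Rnf43 and Lgr5 were too low to be tested. Over all tested genes, 28.3% lay below both controls and 28.1% above. None of the 6 that were tested passed with edgeR, and DESeq2 called Axin2. At an unadjusted p under 0.05, 3 of the 6 were lower and 1 higher, against 10.9% and 12.7% of all tested genes. Lef1 and Notum, both among the lower ones, passed the count filter through their control counts alone. The share of lower genes is therefore not independent of the filter. Cardiomyocyte and endothelial markers lay in the same direction as Sfrp1, Axin2, Lef1, Notum and Fzd4. All 10 cardiomyocyte markers had a negative log2 fold change (median -1.09). Smooth muscle and pericyte markers were mixed, with 5 of 8 negative and 3 positive. Of these 1 rose (Acta2, edgeR adjusted p = 0.0284) and 0 fell, against 3.12% and 0.999% of all tested genes. Their summed level was 1540 and 1328 CPM in control against 1494 and 1651 CPM in YAP5SA. All 12 endothelial markers had a negative log2 fold change (median -0.80), and Vwf and Robo4 fell, where 0.999% of all tested genes did. The summed level of the endothelial markers was 2110 and 1362 CPM in control replicates 1 and 2 and 1061 and 983 CPM in the YAP5SA replicates, with no marker at 0. Sfrp1, Axin2, Lef1, Notum and Fzd4 were higher in control replicate 1 than in replicate 2, as were 26 of the 39 tested Wnt pathway genes and 52.6% of all tested genes. This also held for 10 of 12 endothelial, 10 of 12 fibroblast, 8 of 9 epicardial and 9 of 13 macrophage and monocyte markers. It held for 4 of 8 smooth muscle and pericyte markers and 1 of 10 cardiomyocyte markers. The part of any of these cell types in the levels of Sfrp1, Axin2, Lef1, Notum and Fzd4 was not tested.

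**Figure D3:**
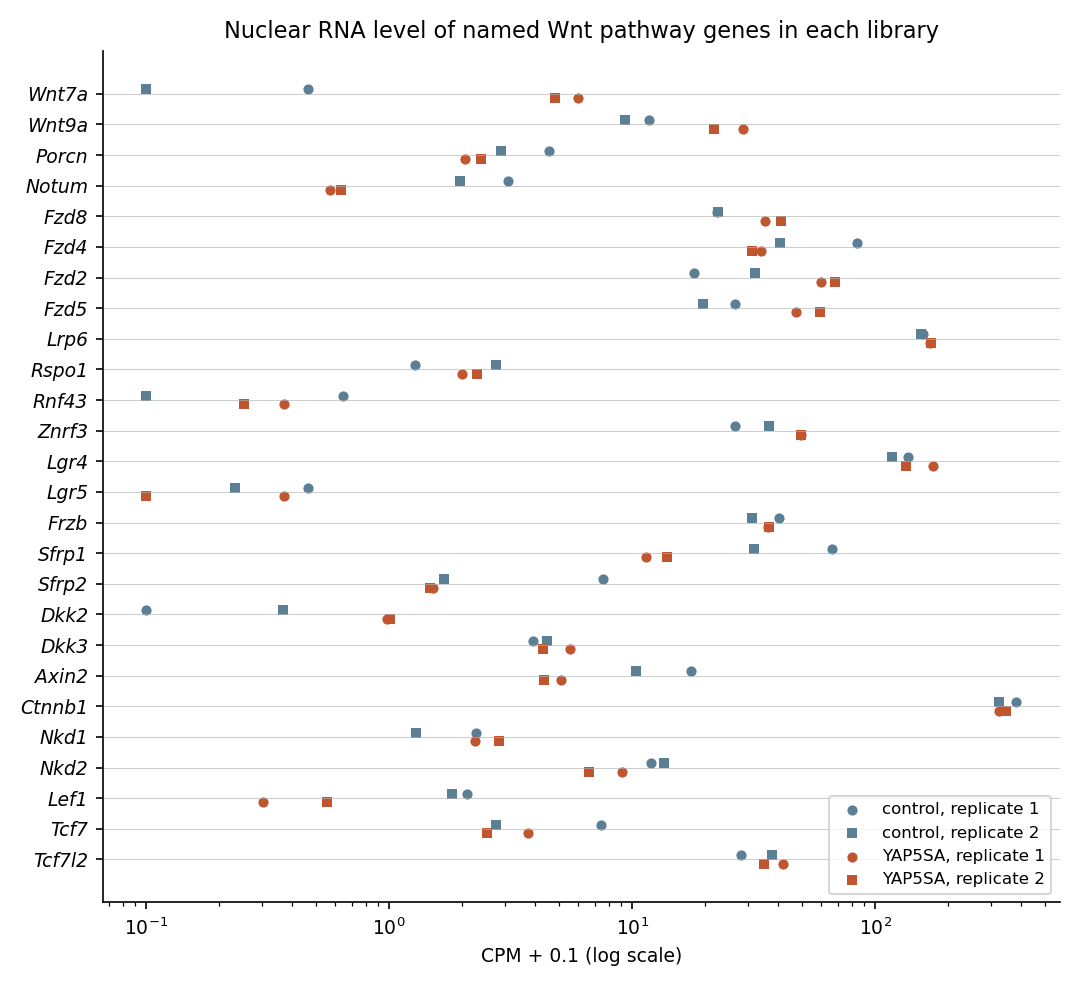
CPM plus 0.1 (x axis, log scale) of the 26 genes picked by the naming rule, each point 1 library, circles replicate 1 and squares replicate 2, control in blue above and YAP5SA in orange below each line. The groups separate for Wnt7a (0.362 and 0 CPM against 5.86 and 4.71), Fzd2, Fzd5 and Wnt9a upward and for Sfrp1, Axin2, Lef1 and Notum downward, and they lie close together for Ctnnb1, Lrp6 and Frzb.

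The 23 genes too low to be tested were Wnt1, Wnt2, Wnt3, Wnt3a, Wnt6, Wnt7b, Wnt8a, Wnt8b, Wnt9b, Wnt10a, Wnt10b, Wnt16, Fzd10, Rspo2, Rspo3, Rspo4, Rspo4os, Rnf43, Lgr5, Wif1, Sfrp4, Dkk1 and Dkk4. Of the 22 with any count, 10 had their highest CPM in control replicate 1 (45.5%), against 39.5% of all 12831 untested genes with a count. The genes highest there include Wnt1, Wnt10b, Wnt7b and Fzd10, whose counts in control replicate 2 were 1, 1, 0 and 1. Among the tested genes, 26 of 39 were higher in control replicate 1 than in replicate 2 (66.7%), against 52.6% of all tested genes.

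Other genes of the pathway, 120 symbols in 5 lists chosen by function (these lists too were chosen with earlier results known), gave 106 tested genes. Of these 3 rose and 1 fell with edgeR, near the 3.12% and 0.999% of all tested genes. DESeq2 called 9 higher and 5 lower of 108, against 5.49% and 2.73% of the genes it tested. Gpc4 (chromosome X, 52053021 to 52165252), which encodes glypican 4, a cell-surface heparan sulfate proteoglycan that binds Wnt proteins, had the largest fold change of the genes called. It rose from 47.2 and 58.4 CPM in control to 326 and 375 CPM in YAP5SA (log2 fold change 2.73, SE 0.210, adjusted p = 0.0143), and it was called in 11 of 12 fits, the exception being the fit without YAP5SA replicate 2 (adjusted p = 0.0655). Of 19 tested secretion and extracellular genes Gpc4 was the gene that passed. Wls, the carrier of Wnt proteins to the cell surface, is in the same list and measured 143 and 190 CPM against 350 and 373 CPM (adjusted p = 0.0545).

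Of 26 tested genes of planar polarity and alternative receptors, Prickle1 rose and Plcb4 fell. Prickle1 (chromosome 15, 93499114 to 93595891), a core planar polarity gene, measured 24.5 and 25.9 CPM in control against 48.2 and 54.5 CPM in YAP5SA (log2 fold change 1.03, adjusted p = 0.0429). Plcb4, which encodes a phospholipase C, measured 139 and 132 CPM against 66.1 and 61.4 CPM (log2 fold change -1.08, adjusted p = 0.0354). Both calls held in 9 of 12 fits, and among those that lost them were the fits without YAP5SA replicate 1 (adjusted p = 0.275 for Prickle1 and 0.335 for Plcb4) and without YAP5SA replicate 2 (0.532 and 0.542). Of 25 tested destruction complex and Dishevelled genes and 20 nuclear cofactors, 0 passed with edgeR. At an unadjusted p under 0.05, 2 and 2 were higher and 4 and 2 lower, against 12.7% higher and 10.9% lower of all tested genes.

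Among 16 tested genes known as beta-catenin targets outside the 62, 1 rose and 0 fell, against 3.12% and 0.999% of all tested genes. Wisp1, which encodes the matricellular protein CCN4, measured 36.4 and 52.5 CPM in control against 177 and 188 CPM in YAP5SA (log2 fold change 2.04, SE 0.228, adjusted p = 0.0278). Its call was lost without YAP5SA replicate 1 (adjusted p = 0.0718) and without YAP5SA replicate 2 (adjusted p = 0.167). The list ran from -2.82 for Tnfrsf19, where control replicate 1 stood alone at 21.7 CPM against 3.83 CPM in replicate 2, to 2.04 for Wisp1, with a median of -0.21. Tnfrsf19, Myc, Ccnd1 and Sox9 were chosen after their values were seen. Myc and Ccnd1, widely used targets that many other pathways also induce, measured 31.2 and 57.1 against 125 and 110 CPM, and 67.5 and 39.3 against 113 and 122 CPM (adjusted p = 0.0698 and 0.0896). At an unadjusted p under 0.05, 5 of the 16 were higher (Wisp1, Myc, Ccnd1, Cd44 and Fgf9). Another 4 were lower (Tnfrsf19, Fosl1, Nrcam and Sox9). Over all tested genes the shares were 12.7% and 10.9%. Sox9 measured 14.9 and 13.9 CPM in control against 7.88 and 8.35 CPM in YAP5SA (adjusted p = 0.0993). Of the 16, both YAP5SA libraries lay above both controls for 6 and below them for 4, against 28.1% and 28.3% of all tested genes.

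Calls among the 62 genes depended on which library was left out. Without control replicate 1, 10 of 44 tested were called higher and 7 lower, against 18.8% and 17.4% of all genes tested in that fit. Without control replicate 2 the numbers were 9 and 14 of 48, against 19.7% and 18.6%. These counts were not tested against the shares called over all genes, so nothing particular to the Wnt pathway genes is read from them. Without YAP5SA replicate 1 edgeR called 0 of the 62, against 0.362% higher and 0.0266% lower of all genes, and without YAP5SA replicate 2 also 0, against 0.143% higher and 0 lower. At an unadjusted p under 0.05 there were 5 higher and 2 lower of 44 without YAP5SA replicate 1, against 6.12% and 3.96% of all genes, and 4 higher and 3 lower of 43 without replicate 2, against 5.17% and 2.86%. Wnt7a, Wnt9a, Fzd2, Fzd5, Fzd8, Wnt9b and Znrf3 were called higher and Axin2, Lef1, Notum, Sfrp1 and Nkd2 lower in both fits that left out a control library. These fits take the spread from the pair that is left, and the YAP5SA pair has the smaller spread. Across all 12 fits the log2 fold change kept its sign for Wnt7a (3.87 to 8.98), Wnt9a (1.08 to 1.46), Fzd2 (1.01 to 1.88), Fzd5 (1.04 to 1.46), Sfrp1 (-2.36 to -1.32), Axin2 (-1.87 to -1.14), Notum (-2.52 to -1.86) and Lef1 (-3.11 to -1.97). For each of these genes both YAP5SA libraries lay on the same side of both controls, so leaving out a library could hardly turn the sign. The stable signs are therefore no separate support.

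**Figure D4:**
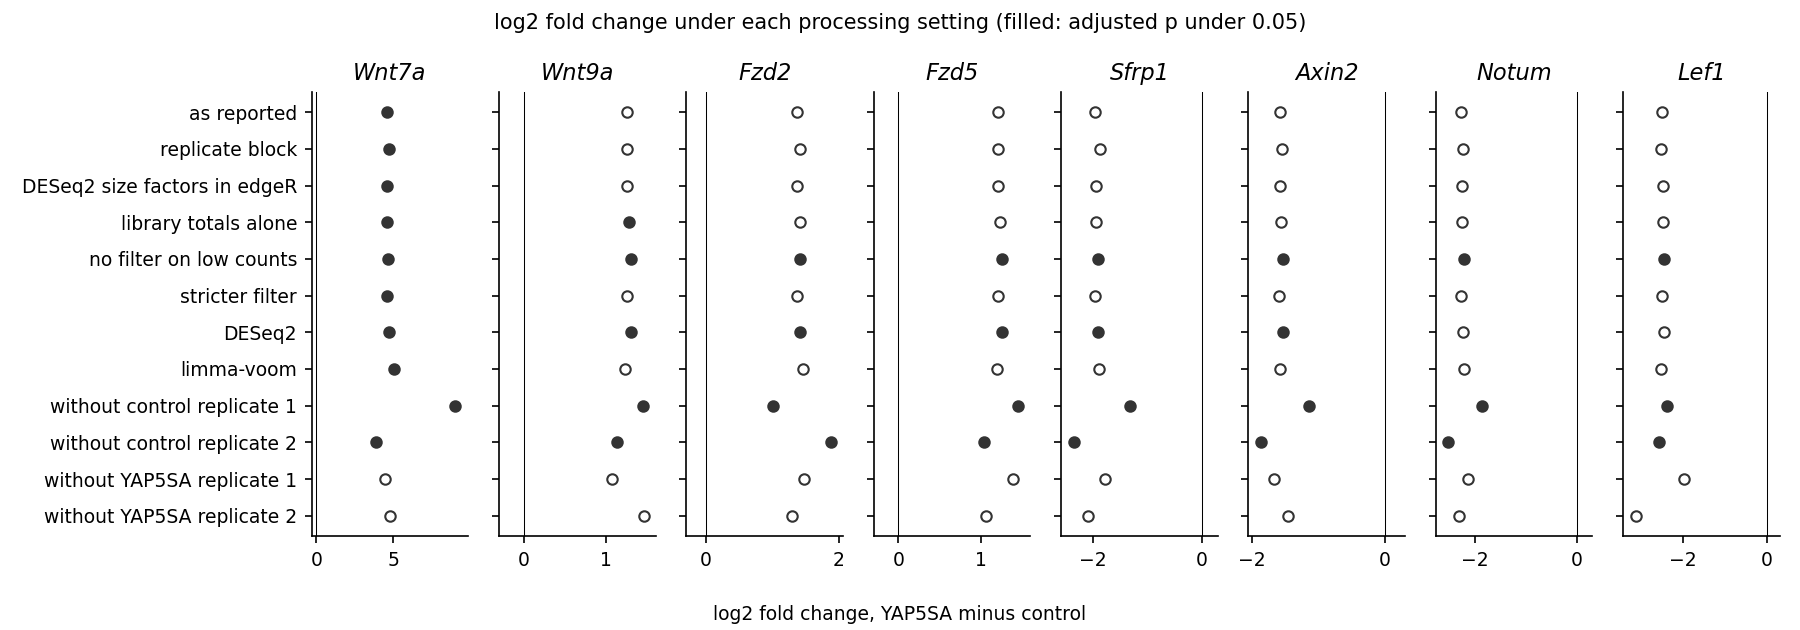
The log2 fold change (x axes, YAP5SA minus control) of 8 genes under the reported fit and 11 alternatives (rows), filled where the adjusted p is under 0.05. The groups do not overlap for these genes, so the signs could hardly change across rows, and they do not. The filled points of genes other than Wnt7a stand mostly where the filter on low counts or a control library was left out, or with DESeq2.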

How the data were processed

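Nuclear RNA was sequenced from 2 control and 2 YAP5SA samples. The authors deposited raw counts per gene symbol. Per the labels' protocols, libraries were stranded, ribosomal RNA was removed, sequencing was paired-end, and reads were mapped to mm10 with STAR. The submitters' processing notes name DESeq2. The sources used here name no counting program, strand setting, annotation or versions. The ATAC-seq and 4C-seq samples were not analysed here.

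Genes were kept by filterByExpr (minimum count 10), scaled by TMM and tested with the quasi-likelihood test of edgeR 4.0.16 (R 4.3.3), without a replicate block, with Benjamini-Hochberg adjustment over all tested genes and a threshold of 0.05. Each SE was taken as the absolute log2 fold change over the root of its F statistic. The pipeline was tested on simulated data with the same spread in every library and with changes placed in well-counted genes only. That test does not cover the unequal spread of the groups or genes with few counts. Alternatives used DESeq2 1.42.0, limma 3.58.1, other scalings and filters, a replicate block, and each library left out. Coordinates and exon lengths come from GENCODE M21 (GRCm38). Genes were named where they passed the threshold, had at least 1 CPM and an absolute log2 fold change of at least 1, had no overlap and an unadjusted p under 0.05, led their role per length, or were feedback targets, which gave 26. The members and lists were chosen with earlier results of these data known. The replicate pairs differed by more than sampling noise (chi-square per gene 61.9 and 15.2). The labels do not say that replicates were separate animals, so p-values reflect spread among libraries, which may be technical. Intervals are exact binomial, and these and the floors hold counting error alone, as no molecular identifiers are stated.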

Additional observations from a re-analysis of the deposited data

How the results depend on the processing

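Counts of calls depended on the fit more than directions did. The labels do not say whether same-numbered libraries were handled together. Deviations of same-numbered libraries had a correlation of -0.0917 across genes, which with 2 libraries a group cannot settle this. With a replicate block 321 genes were called higher and 112 lower, against 553 and 177 without it. With the block the count among the 62 Wnt pathway genes was unchanged at 1 higher and 0 lower. The block left Prickle1 and Plcb4 with adjusted p of 0.0765 and 0.0637. With no filter on low counts 1727 and 1689 of all genes were called, 8 and 6 of the 62 genes, and 13 and 11 of the other pathway genes. DESeq2 called 1060 and 527 of all genes, 4 and 2 of the 62, and 9 and 5 of the other pathway genes. Library totals alone gave 2 higher calls among the 62 (Wnt7a and Wnt9a) and 5 among the other pathway genes. When single libraries were left out, the calls ran from 27 to 3749 higher and 0 to 3554 lower over all genes, from 0 to 10 and 0 to 14 among the 62, and from 0 to 30 and 0 to 28 among the other pathway genes. In those fits the sign turned for Rspo1 (-0.36 without control replicate 1, up to 0.82), Frzb (-0.11 without control replicate 2, up to 0.23), Tcf7 (0.22 without control replicate 1, down to -1.23) and Ctnnb1 (0.057 without control replicate 1 and 0.0048 without YAP5SA replicate 1, down to -0.15), and of these Tcf7 was called in 1 fit, as lower without control replicate 2. Apart from these the named genes kept their direction, in 250 comparisons on the same side of the threshold, in 50 now past it and in 11 no longer past it. Such fits assume that a lone library varies as the remaining pair does. The cause was not tested. With 2 libraries a group and 3 counts as the floor, the 23 genes below the filter have no test in the reported fit, and 4 of them (Wnt9b, Wnt1, Wnt10b and Fzd10) were called in other fits.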
